A study of Homo sapiens with 9 samples.

Results

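The transcripts described here are the LINC-named long intergenic non-coding RNAs of A549, a line of human lung adenocarcinoma cells that is long established in culture. They were selected on their mean level: they are the rows of the deposited count table whose Ensembl ID maps to a symbol starting with LINC and whose mean count over all 9 libraries was at least 50. Of 57905 rows, 2104 carried a LINC symbol, 1191 of these had 0 counts in every library, and 113 met the rule. All 113 passed the filter on low counts and were tested. The rule used the mean level over the 9 libraries and no comparison between groups.

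The libraries fall into 3 groups of 3. The titles call the control libraries plko, while the treatment label calls them scrambled controls. Whether these cells received a hairpin without a target or an empty vector is not settled by the names. The shAKR1B1 cells carried a short hairpin RNA against AKR1B1, aldose reductase, which turns glucose into sorbitol. The shSORD cells carried one against SORD, sorbitol dehydrogenase, which turns sorbitol into fructose, so the pair of knockdowns targets the successive enzymes of the polyol pathway. Both knockdowns carry a single hairpin label and both are compared with the same control libraries, so an effect of a hairpin or of the control population cannot be told apart from that of the target. The series calls the libraries of a group biological replicates but does not say whether they were separate transductions, so each p-value reflects only how far these libraries scatter, and that scatter may be technical.

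Long non-coding RNAs are transcribed by RNA polymerase II, and many are capped, spliced and polyadenylated like messenger RNA but encode no known protein. Intergenic ones often start near the promoters or enhancers of coding genes, tend to be less abundant and more cell-type restricted than messenger RNAs, and many stay in the nucleus. Symbols of the form LINC plus a number are given to those that cannot be named after a function or a coding gene, so the name groups transcripts by the lack of a described role and not by a shared pathway.

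Total counts ranged from 32436524 to 43044456 per library. The targeted genes fell in the group that bears their name. AKR1B1 was at 1456, 1395 and 1397 CPM (counts per 1e+06 of the library total after scaling for composition) in control, at 146, 148 and 167 CPM with shAKR1B1 and at 945, 1109 and 1135 CPM with shSORD. SORD was at 44.1, 43 and 41.7 CPM in control, 30.4, 30.2 and 31.0 CPM with shAKR1B1 and 8.68, 9 and 8.18 CPM with shSORD. Both enzymes were thus also lower, by 1.33-fold and 1.41-fold, in the knockdown of the other. The shSORD libraries differed more from each other (chi-square per degree of freedom 12.8 to 26.9 over genes) than the control libraries (2.37 to 5.72) or the shAKR1B1 libraries (3.36 to 6.33).

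Genes chosen as markers of the A549 epithelium, among them the reductases AKR1C1 and AKR1B10, were present in every library. The summed level of these 7 genes was 12152 to 12292 CPM in control, 18773 to 19532 with shAKR1B1 and 14290 to 15951 with shSORD. With the reductases in it, the sum does not stand for epithelial genes alone. EPCAM, KRT8, KRT18, KRT19, CDH1 and AKR1C1 rose in both knockdowns. AKR1B10, a reductase related to AKR1B1 and the largest part of the control sum at 4947 CPM, rose with shAKR1B1 (log2 0.45) and fell with shSORD (-0.18). All 4 endothelial markers had fewer than 10 counts in every library, and of 5 leukocyte markers CD3E was at 0 and CD14 carried the sum, which was 8.12 to 9.75, 5.13 to 5.85 and 2.86 to 4.51 CPM in the order above. CD14 fell in both knockdowns (log2 -0.83 and -1.38). LYZ rose in both (log2 3.91 and 2.34), from 1 to 2 counts per library in control to 19 to 27 with shAKR1B1 and 3 to 11 with shSORD. The sum of 6 fibroblast markers, mostly the collagen gene COL1A1, was 14.7 to 16.2, 8.58 to 10.2 and 34.0 to 52.9 CPM, while DCN had at most 4 counts. COL1A1 itself fell with shAKR1B1 (log2 -0.75) and rose with shSORD (1.28). COL1A2, LUM and PDGFRB also rose with shSORD, from 4 to 11, 0 to 2 and 5 to 11 counts per library in control to 43 to 217, 14 to 22 and 16 to 46 counts. LUM rose with shAKR1B1 too, to 4 to 12 counts, while COL1A2 and PDGFRB were not called there. The 3 neuronal genes SNAP25, SYT1 and RBFOX3 summed to 44.8 to 46.3, 65.9 to 75.1 and 41.4 to 53.2 CPM. With shAKR1B1, SNAP25 and SYT1 rose (log2 0.77 and 1.07) and RBFOX3 was not called. With shSORD, SYT1 rose (0.84), RBFOX3 fell (-1.17) and SNAP25 was not called. The part of these shifts in the changes described below was not tested, and in bulk RNA fewer cells with a transcript and less transcript per cell cannot be told apart.

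Most of the 113 transcripts were typed as intergenic in the GENCODE 29 annotation: 87 as lincRNA and 13 as processed transcript, with 4 antisense, 2 bidirectional promoter RNAs, 1 sense-overlapping RNA, 4 transcribed pseudogenes and 2 loci, LINC03040 and LINC02693, typed as protein-coding. They lie on 21 chromosomes. Mean counts ran from 50.2 for LINC00862 to 2754 for LINC00963, with a median of 161, and 35 of them lay under 100. The members nearest to the threshold were LINC00862 at 50.2, LINC02482 at 53.9 and LINC02985 at 55.0 counts, and the rows just outside it were LINC01001 at 49.6, LINC00322 at 49.4 and LINC01881 at 49.3.

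Levels of different transcripts were compared per length, as CPM per kb of exon. They spanned 98.7-fold, from 0.167 to 16.5 CPM per kb, with a median of 1.65 against 6.05 for protein-coding genes above the same count threshold. The 10 highest were LINC02582 at 16.5 CPM per kb over all libraries, LINC02506 at 8.80, LINC01433 at 8.56, LINC03060 at 8.46, LINC01836 at 8.36, LINC00674 at 6.99, LINC00973 at 6.48, LINC00847 at 6.47, LINC00857 at 6.43 and LINC02298 at 6.41. LINC02582 was also the highest within shAKR1B1, at 22.8 ± 2.15 CPM per kb (SD, n = 3), and within shSORD, at 16.5 ± 1.16. In control it was exceeded by LINC01433 at 16.5 ± 0.364 and LINC00973 at 13.2 ± 0.337, against 10.2 ± 0.634 for LINC02582. LINC02506, LINC03060 and LINC01836 differed from each other over all libraries by less than the SD of LINC02506 in control, 1.14, and the seventh to the tenth of these RNAs differed by less than 0.1 CPM per kb, so neither set has a firm order. LINC00963, which had the most counts, is 13.2 kb long and stood at 5.40 CPM per kb, rank 19.

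More of these RNAs rose than fell in either knockdown. With shAKR1B1, 51 of 113 rose and 22 fell (45.1% and 19.5%) at an adjusted p under 0.05 in edgeR's quasi-likelihood test, while 27.8% of all 16916 genes tested rose and 29.6% fell (57.4% called). With shSORD, 56 rose and 16 fell (49.6% and 14.2%), while 27.5% of all genes rose and 29% fell (56.5% called). Among the 13221 genes at or above the same count threshold the shares were 28.4% up and 34.3% down with shAKR1B1 and 27.7% up and 34.2% down with shSORD. The share called in either direction was close to this background, 64.6% against 62.7% with shAKR1B1 and 63.7% against 61.9% with shSORD. For calls of any size, the list thus differed from the background in the balance of directions and not in the number of calls. Antisense-named genes, given further below, also rose more often than they fell, so this balance is not particular to the list. No test of the list as a whole was made.

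The median log2 fold change over the 113 was 0.25 with shAKR1B1 and 0.28 with shSORD, against -0.03 and -0.04 over all genes above the threshold. Changes of at least 2-fold were found in 17 upward and 8 downward with shAKR1B1 (background 5.34% and 2.70%) and in 15 upward and 5 downward with shSORD (background 4.98% and 2.25%). As shares of the 113, these 2-fold counts lay above the background in both directions. The 3 knockdown libraries lay beyond the 3 control libraries for 57 members upward and 26 downward with shAKR1B1 (background 34.3% and 41.1%), and for 53 and 18 with shSORD (background 28.8% and 35.9%). Summed over the list, the level was 749 ± 0.435 CPM in control, 850 ± 20.4 with shAKR1B1 and 871 ± 22.6 with shSORD (SD, n = 3 each).

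The threshold has a part in these counts. A mean over all groups lets in a transcript that is scarce in control and abundant in a knockdown: 14 members had a control mean under 50 counts, against 6 under 50 in shAKR1B1 and 2 in shSORD. Among the 93 with at least 50 counts in every group mean, 39 rose and 18 fell with shAKR1B1 and 44 rose and 14 fell with shSORD, the members 2-fold higher numbered 9 and 8, and the medians were 0.15 and 0.20. Of all 12613 genes that met this rule, 27.3% rose and 34.7% fell with shAKR1B1, 26.3% rose and 35% fell with shSORD, 3.96% and 3.49% were 2-fold higher, and the medians were -0.04 and -0.05.

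**Figure D1:**
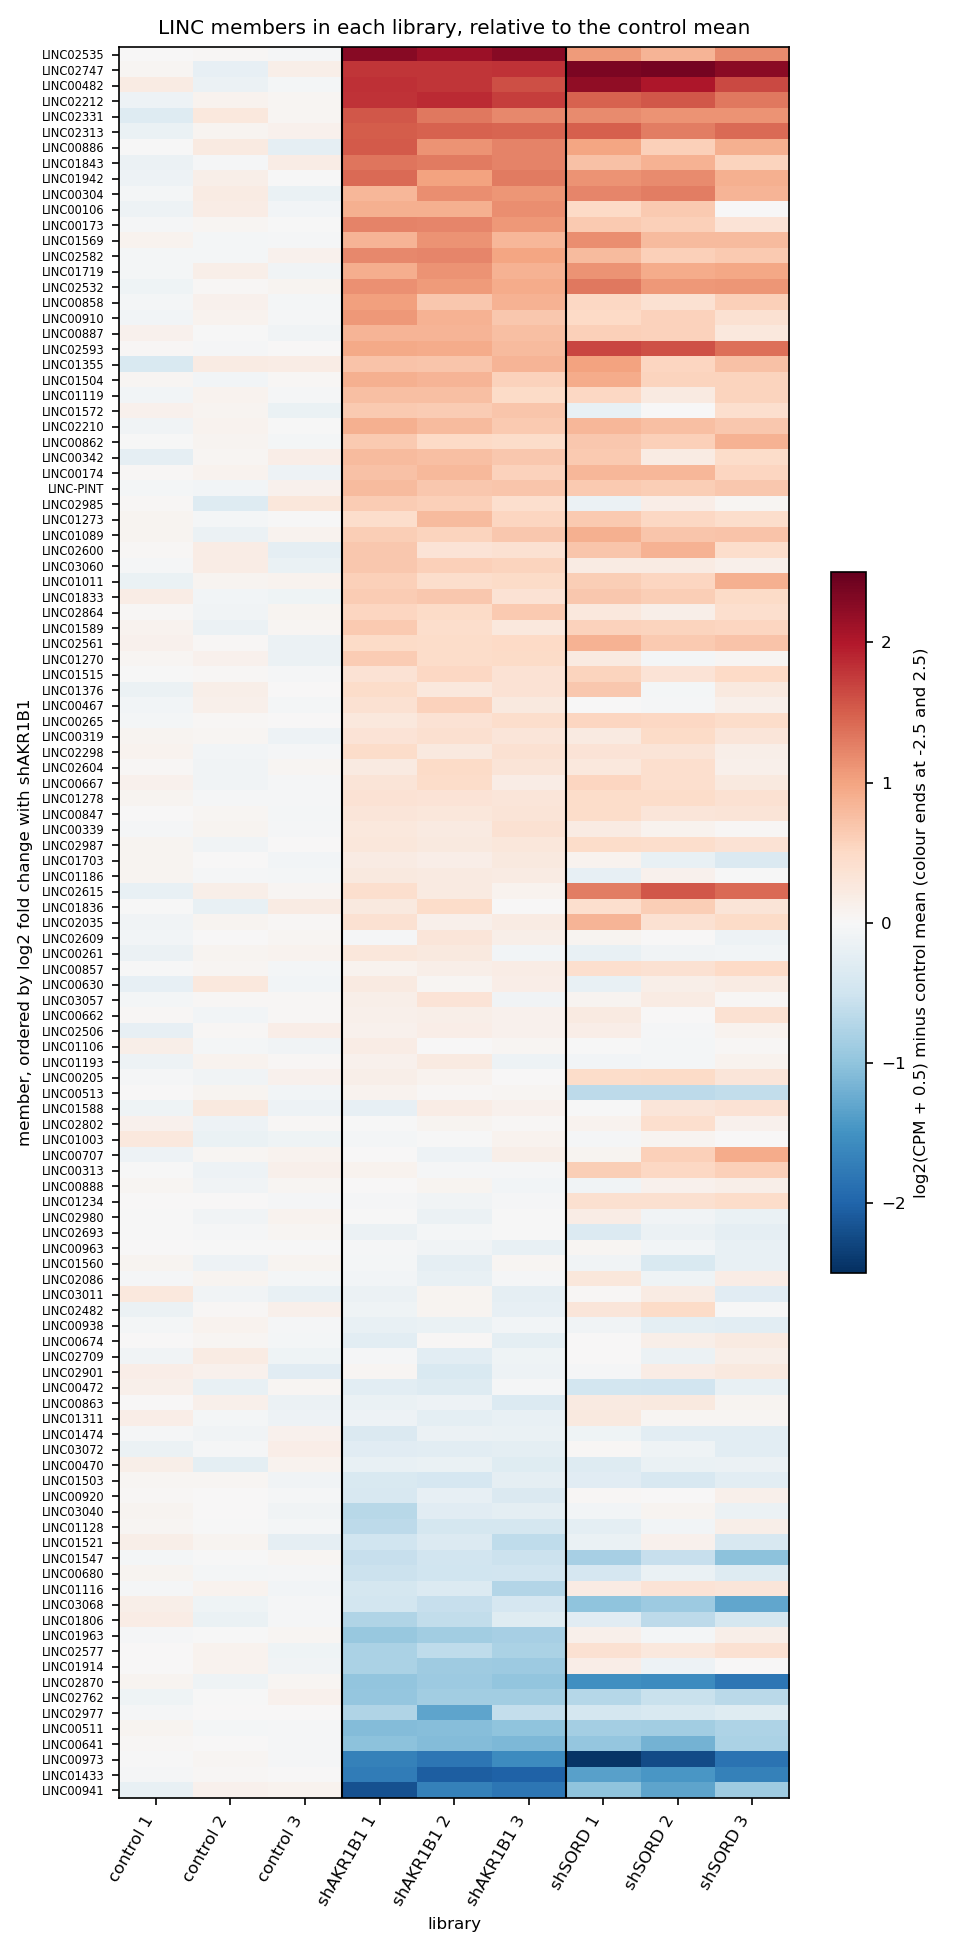
Each of the 113 LINC-named RNAs (rows, ordered by log2 fold change with shAKR1B1) in each of the 9 libraries (columns), as log2(CPM + 0.5) minus the mean of the 3 control libraries. Red rows outnumber blue ones in both knockdowns (51 called higher and 22 lower with shAKR1B1, 56 and 16 with shSORD).

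Set side by side, 45 members rose in both knockdowns, 13 fell in both, 2 fell with shAKR1B1 and rose with shSORD, and 28 were called in neither (39.8%, 11.5%, 1.77% and 24.8% of the list). Of all genes above the threshold, 20.5% rose in both, 25.5% fell in both, 1.23% fell with shAKR1B1 and rose with shSORD, and 23.5% were called in neither. A further 6 rose and 7 fell with shAKR1B1 only at this threshold, and 9 rose and 3 fell with shSORD only, which does not show that those effects differ. The 2 comparisons share their control libraries, so the joint counts carry that shared error, in the members and in the background. At the 2-fold level 12 were higher in both and 4 were lower in both (background 3.46% and 1.08%).

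Promoters of 6 RNAs with large changes are shown as a description of sequence, and their part in the rises and falls was not tested. They come from RefSeq (GRCh38.p14, another build than that of the counts), which had an entry for 85 of the 113 symbols, and each runs from 250 bases before to 50 bases after the annotated start. Capitals mark matches to 5 motifs searched on both strands. The TATA box was searched as TATAAA. The core of the antioxidant response element, bound by NRF2, was searched as TGACNNNGC. The site of AP-1, the FOS and JUN family, was searched as TGANTCA and can overlap the antioxidant core. The site of the FOXA pioneer factors was searched as TGTTTAC. The E-box, bound by MYC and related factors, was searched as CACGTG. The windows are chr11:69479908-69480207 (minus strand) for LINC02747, chr17:81309199-81309498 (minus) for LINC00482, chr6:85404753-85405052 (minus) for LINC02535, chr3:98914316-98914615 (plus) for LINC00973, chr20:4192840-4193139 (plus) for LINC01433 and chr12:30795431-30795730 (plus) for LINC00941. The first 3 RNAs rose in both knockdowns and the other 3 fell in both. LINC02535 was added by name. LINC02313, which also rose strongly in both, is not shown, and its window held 0 matches to these motifs.
LINC02747: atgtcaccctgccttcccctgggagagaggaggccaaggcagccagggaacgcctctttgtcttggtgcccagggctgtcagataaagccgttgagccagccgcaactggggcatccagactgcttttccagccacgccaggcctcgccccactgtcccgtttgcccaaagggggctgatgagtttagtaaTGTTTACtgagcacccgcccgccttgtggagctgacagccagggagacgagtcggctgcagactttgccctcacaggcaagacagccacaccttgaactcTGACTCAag
LINC00482: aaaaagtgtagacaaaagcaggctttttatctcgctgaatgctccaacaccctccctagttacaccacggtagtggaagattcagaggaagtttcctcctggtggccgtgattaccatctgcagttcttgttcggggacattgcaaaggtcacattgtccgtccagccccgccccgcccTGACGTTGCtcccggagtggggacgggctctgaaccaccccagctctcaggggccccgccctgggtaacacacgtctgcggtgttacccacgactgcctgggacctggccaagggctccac
LINC02535: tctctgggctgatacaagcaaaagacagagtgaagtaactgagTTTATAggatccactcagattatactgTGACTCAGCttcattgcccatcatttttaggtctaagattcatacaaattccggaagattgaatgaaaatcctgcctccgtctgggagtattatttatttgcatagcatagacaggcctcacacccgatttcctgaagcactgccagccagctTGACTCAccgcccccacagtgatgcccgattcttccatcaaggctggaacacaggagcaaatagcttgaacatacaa
LINC00973: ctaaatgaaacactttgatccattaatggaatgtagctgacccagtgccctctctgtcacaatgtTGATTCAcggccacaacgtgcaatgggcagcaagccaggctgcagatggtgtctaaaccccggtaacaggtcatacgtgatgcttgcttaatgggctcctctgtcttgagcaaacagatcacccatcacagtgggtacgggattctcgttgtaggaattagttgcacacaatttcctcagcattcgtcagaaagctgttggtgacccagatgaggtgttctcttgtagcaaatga
LINC01433: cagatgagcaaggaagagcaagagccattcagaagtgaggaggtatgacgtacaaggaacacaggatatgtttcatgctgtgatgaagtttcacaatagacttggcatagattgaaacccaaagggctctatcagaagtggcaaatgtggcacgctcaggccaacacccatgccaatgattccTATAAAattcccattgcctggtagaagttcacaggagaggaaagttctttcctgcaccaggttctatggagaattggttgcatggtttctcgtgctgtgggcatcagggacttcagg
LINC00941: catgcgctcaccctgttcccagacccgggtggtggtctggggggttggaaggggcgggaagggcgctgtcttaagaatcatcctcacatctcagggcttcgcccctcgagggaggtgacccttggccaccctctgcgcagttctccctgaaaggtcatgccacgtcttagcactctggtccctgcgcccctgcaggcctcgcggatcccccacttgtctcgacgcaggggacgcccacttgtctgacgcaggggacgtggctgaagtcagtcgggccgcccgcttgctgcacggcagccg

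The LINC02747 window holds a FOXA match at base 192 and an AP-1 match at base 292, counted from 1 at the 5′ end of the window. LINC00482 has the antioxidant core at base 180, LINC00973 an AP-1 match at base 66 and LINC01433 a TATA box at base 184. LINC02535 has a TATA match on the opposite strand at base 44, an AP-1 match inside an antioxidant core at base 71 and a second AP-1 match at base 224. No motif of the 5 was found in the LINC00941 window.

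Across the 85 matched promoters the TATA box was found in 15.3% and in 12% of all 27305 RefSeq promoters of this length. The antioxidant core was found in 20% against 13.6%, the AP-1 site in 11.8% against 7.76%, the FOXA site in 5.88% against 3.41% and the E-box in 7.06% against 7.43%. Of the 34 matched promoters of RNAs that rose in both knockdowns, 6 held the antioxidant core and 4 an AP-1 site. Of the 10 whose RNAs fell in both, 1 and 2 did, and of the 22 called in neither, 7 and 2 did. The core was thus more frequent among the RNAs that were called in neither knockdown (31.8%) than among those that rose in both (17.6%). These are shares of letters in a fixed window and no test was made on them.

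LINC02747 (ENSG00000255774, chromosome 11) rose most with shSORD. It was at 0.967, 0.716 and 1.07 CPM in control, 4.38, 4.39 and 4.45 CPM with shAKR1B1 and 6.71, 6.92 and 6.22 CPM with shSORD. No library of any group overlapped another group. The log2 fold change was 2.26 ± 0.14 (SE, adjusted p = 6.42e-09) with shAKR1B1 and 2.85 ± 0.14 (adjusted p = 5.49e-10) with shSORD, and the knockdowns differed by -0.59 ± 0.11 (shAKR1B1 against shSORD, adjusted p = 0.00076).

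LINC00482 (ENSG00000185168, chromosome 17) was at 1.88, 1.38 and 1.5 CPM in control, 6.86, 6.71 and 5.82 CPM with shAKR1B1 and 9.14, 7.88 and 5.99 CPM with shSORD. All 6 knockdown libraries lay above control, while the knockdown groups overlapped. It rose 4.07-fold with shAKR1B1 (log2 2.02 ± 0.17, adjusted p = 1.31e-07) and 4.84-fold with shSORD (log2 2.27 ± 0.17, adjusted p = 4.48e-08), and the difference between the knockdowns was -0.25 ± 0.14 (adjusted p = 0.196).

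LINC02535 (ENSG00000234155, chromosome 6) rose most with shAKR1B1. It was at 1.60, 1.62 and 1.53 CPM in control, 9.62, 8.71 and 9.60 CPM with shAKR1B1 and 3.83, 3.24 and 4.21 CPM with shSORD. The groups did not overlap, with shSORD between the others. The rise was 5.87-fold with shAKR1B1 (log2 2.55 ± 0.12, adjusted p = 2.89e-10) and 2.38-fold with shSORD (log2 1.25 ± 0.13, adjusted p = 1.78e-06). Its difference between the knockdowns, 1.31 ± 0.11 (adjusted p = 3.25e-07), was the only one of at least 2-fold in this direction.

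LINC02212 (chromosome 5) was more abundant, at 4.23, 5.01 and 4.83 CPM in control, 17.6, 18.3 and 16.7 CPM with shAKR1B1 and 14.0, 14.6 and 12.5 CPM with shSORD. It rose 3.73-fold (adjusted p = 3.58e-10) and 2.91-fold (adjusted p = 5.77e-09). LINC02313 (chromosome 14) was at 0.884, 1.14 and 1.17 CPM in control, 3.95, 3.82 and 3.76 CPM with shAKR1B1 and 3.91, 3.27 and 3.69 CPM with shSORD. Its rises, 3.59-fold (adjusted p = 6.25e-08) and 3.38-fold (adjusted p = 1.44e-07), were of like size, with a difference of 0.09 ± 0.12 between the knockdowns.

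LINC02331, also on chromosome 14, was at 0.414, 0.875 and 0.687 CPM in control, where it had only 15 to 33 counts, and at 2.13 to 2.85 CPM with shAKR1B1 and 1.97 to 2.10 CPM with shSORD. It rose 3.66-fold (adjusted p = 2.83e-06) and 3.04-fold (adjusted p = 1.91e-05). LINC00886 and LINC00304 had comparably few control counts, 31 to 47 and 35 to 49. LINC00886 rose 3.17-fold and 2.15-fold (adjusted p = 4.71e-06 and 0.00036), and LINC00304 rose 2.56-fold and 2.72-fold (adjusted p = 3.07e-05 and 1.69e-05). These 3, with LINC02747 and LINC02313, are among the transcripts for which the choice by mean count favoured a rise. The same choice favoured a fall for some members described below. LINC00941 and LINC02577 averaged under 50 counts with shAKR1B1, and LINC03068 did so with shSORD.

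LINC01843 rose 2.85-fold with shAKR1B1 (1.70 ± 0.265 to 4.87 ± 0.196 CPM, SD, n = 3, adjusted p = 3.68e-07) and 1.83-fold with shSORD (adjusted p = 0.000147), a difference of 0.64 ± 0.13 between the knockdowns (adjusted p = 0.00148). LINC02593, on chromosome 1, had the reverse order: 11.9 ± 0.215 CPM in control, 22.6 ± 1.32 with shAKR1B1 and 35.8 ± 3.79 with shSORD. It rose 1.9-fold (adjusted p = 3.03e-07) and 3.01-fold (adjusted p = 1.27e-09), and its groups did not overlap. The other members that rose at least 2-fold in both knockdowns were LINC02532, LINC01719, LINC01942 and LINC01569, with log2 fold changes from 1.10 to 1.49 with shAKR1B1 and from 1.18 to 1.30 with shSORD.

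**Figure D2:**
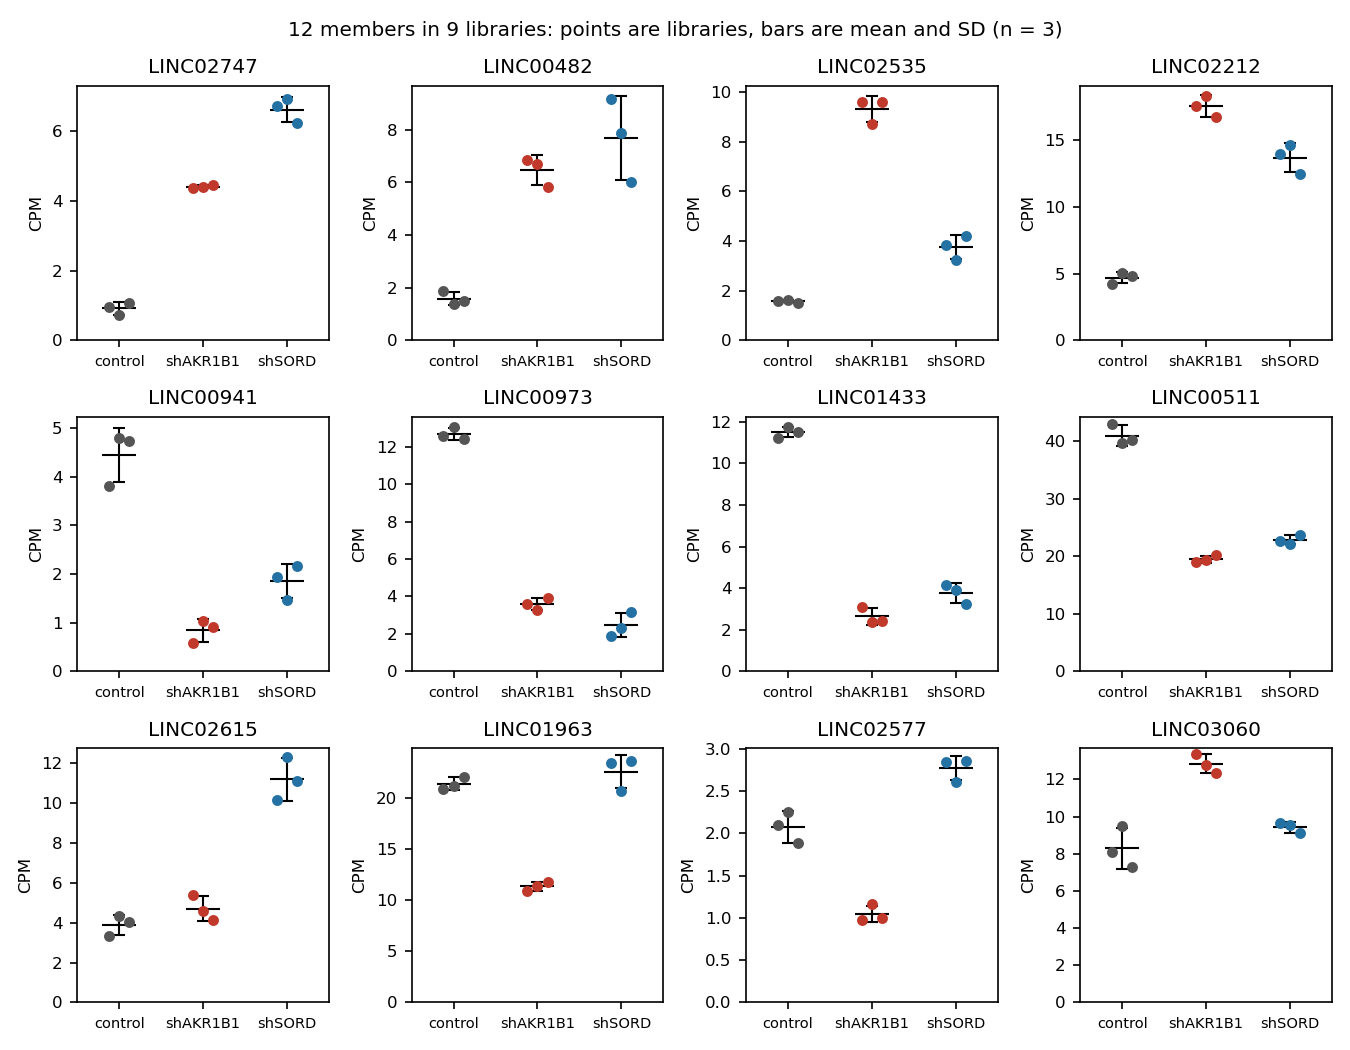
CPM (y axes, from 0) of 12 LINC-named RNAs in the 9 libraries: coloured points are libraries, and black bars are the mean and SD of 3. LINC02747, LINC00482, LINC02535 and LINC02212 lie above control in all 6 knockdown libraries, LINC00941, LINC00973, LINC01433 and LINC00511 below it, and LINC02577 is below control with shAKR1B1 and above it with shSORD.

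Among the falls, LINC00941 (ENSG00000235884, chromosome 12), studied for its part in carcinoma cell invasion and in epidermal differentiation, fell most with shAKR1B1. It was at 3.81, 4.80 and 4.73 CPM in control, 0.582, 1.04 and 0.905 CPM with shAKR1B1 and 1.94, 1.46 and 2.16 CPM with shSORD. The groups did not overlap. It fell 5.19-fold with shAKR1B1 (log2 -2.37 ± 0.20, adjusted p = 9.89e-08) and 2.40-fold with shSORD (log2 -1.26 ± 0.17, adjusted p = 1.98e-05), and the knockdowns differed by -1.11 ± 0.22 (adjusted p = 0.00119).

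LINC00973 (ENSG00000240476, chromosome 3) fell most with shSORD. It was at 12.6, 13 and 12.4 CPM in control, 3.58, 3.26 and 3.92 CPM with shAKR1B1 and 1.92, 2.29 and 3.19 CPM with shSORD. Every knockdown library lay far below control, and the highest shSORD library lay just under the lowest shAKR1B1 library. It fell 3.52-fold (log2 -1.82 ± 0.13, adjusted p = 2.46e-08) and 5.13-fold (log2 -2.36 ± 0.14, adjusted p = 3.81e-09), with a difference of 0.54 ± 0.15 (adjusted p = 0.015).

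LINC01433 (ENSG00000230176, chromosome 20, typed antisense) was the most abundant of these RNAs in control per length. It was at 11.2, 11.7 and 11.5 CPM in control, 3.09, 2.39 and 2.44 CPM with shAKR1B1 and 4.17, 3.90 and 3.24 CPM with shSORD. It fell 4.39-fold (log2 -2.13 ± 0.12, adjusted p = 1.5e-09) and 3.05-fold (log2 -1.61 ± 0.11, adjusted p = 2.43e-08), from 16.5 to 3.79 and 5.41 CPM per kb. Its drop took it from above LINC02582 to well below it.

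LINC02870 and LINC03068, neighbours on chromosome 10, both fell more with shSORD. LINC02870 was at 14.9, 13.2 and 14.8 CPM in control, 6.98, 7.40 and 6.98 CPM with shAKR1B1 and 4.61, 4.46 and 3.74 CPM with shSORD, falls of 2.01-fold and 3.35-fold (adjusted p = 2.81e-07 and 2.16e-09). LINC03068 was at 2.40 ± 0.257, 1.56 ± 0.113 and 0.886 ± 0.190 CPM (SD, n = 3) in the same order, falls of 1.54-fold and 2.70-fold (adjusted p = 0.00453 and 8.36e-06). The difference between the knockdowns was 0.74 ± 0.10 for LINC02870 (adjusted p = 5.45e-05) and 0.81 ± 0.19 for LINC03068 (adjusted p = 0.00433).

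LINC00511, described as raised in several carcinomas, was the highest-count RNA among the falls. It was at 42.9, 39.6 and 40.1 CPM in control, 18.9, 19.3 and 20.1 CPM with shAKR1B1 and 22.6, 22.2 and 23.7 CPM with shSORD. It fell 2.10-fold (log2 -1.07 ± 0.064, adjusted p = 3.43e-09) and 1.79-fold (log2 -0.84 ± 0.063, adjusted p = 5.37e-08). Its exons span 27.6 kb, so per length it was a mid-ranking transcript, at 1.48, 0.704 and 0.826 CPM per kb in control, shAKR1B1 and shSORD.

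LINC00641 (chromosome 14) fell 2.15-fold and 2.00-fold, from 31.0 ± 0.691 CPM to 14.4 ± 0.483 and 15.5 ± 2.09 CPM (adjusted p = 4.96e-08 and 1.75e-07). LINC02762 fell 2.01-fold with shAKR1B1 and 1.65-fold with shSORD (adjusted p = 1.95e-06 and 4.45e-05), and LINC01547 fell 1.48-fold and 1.83-fold (adjusted p = 0.000572 and 1.56e-05). LINC02977, typed sense-overlapping, fell 2.08-fold with shAKR1B1 (adjusted p = 0.000224). Its shSORD value was -0.45 ± 0.18 (adjusted p = 0.0404), a call lost with DESeq2 (adjusted p = 0.0802), with a stricter filter (0.0604), with upper-quartile scaling (0.0785), and without any of the 3 control libraries, shAKR1B1 replicate 1 or shSORD replicate 1 or 2 (edgeR adjusted p = 0.0506 to 0.121); over all alternatives the adjusted p ran from 0.0114 to 0.121. LINC00680 and LINC01806 complete the 13 that fell in both, with log2 fold changes between -0.34 and -0.67.

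**Figure D3:**
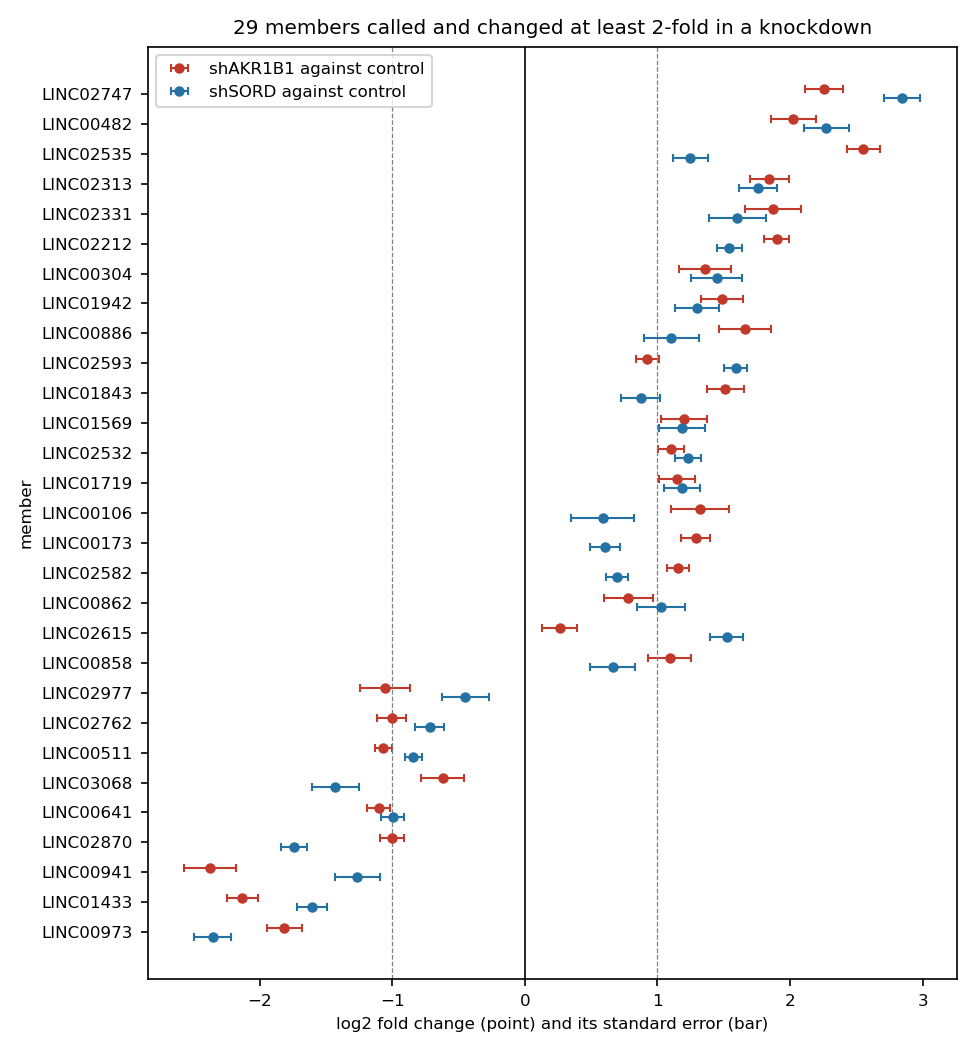
Log2 fold change against control (x axis, points) with its standard error (bars) for the 29 members called and changed at least 2-fold in either knockdown (rows). Of these, 12 lie beyond 1 and 4 beyond -1 in both knockdowns, and LINC02615 is past 1 with shSORD (1.52) and near 0 with shAKR1B1 (0.26).

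Between the knockdowns, 20 members were higher with shAKR1B1 and 20 with shSORD (17.7% each), against 15.5% and 15.1% of all genes tested (30.7% called) and 17.4% and 16.4% of genes above the threshold (33.8% called). Their median log2 difference was -0.03, so the counts lay near the background in both directions. Differences of at least 2-fold were seen for 1 member with shAKR1B1 higher (background 1.40%) and 4 with shSORD higher (background 1.70%).

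LINC02615 (chromosome 4) gave a large difference. It was at 3.34, 4.32 and 4.02 CPM in control, 5.39, 4.59 and 4.13 CPM with shAKR1B1 and 10.2, 12.3 and 11.1 CPM with shSORD. Control and shAKR1B1 overlapped (log2 0.26 ± 0.13, adjusted p = 0.104, or 0.28 and called with 2 groups only, adjusted p = 0.0492), while shSORD rose 2.87-fold (adjusted p = 1.02e-07). The knockdowns differed by -1.26 ± 0.12 (adjusted p = 1.37e-06).

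LINC01963 and LINC01914, both on chromosome 2, fell with shAKR1B1 and were not called with shSORD. LINC01963 was at 20.9, 21.2 and 22.1 CPM in control, 10.9, 11.4 and 11.8 CPM with shAKR1B1 and 23.5, 20.7 and 23.7 CPM with shSORD, a fall of 1.88-fold (adjusted p = 9.07e-08) beside a shSORD value of 0.08 ± 0.071. LINC01914 was at 5.11, 5.44 and 4.78 CPM, then 2.76, 2.52 and 2.48 CPM, then 5.83, 4.66 and 5.14 CPM, a fall of 1.98-fold (adjusted p = 5.76e-06) beside 0.03 ± 0.11. In both, the shSORD libraries spanned the control range. The direct differences were -0.99 ± 0.074 (adjusted p = 1.26e-07) and -1.01 ± 0.12 (adjusted p = 1.18e-05).

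LINC02577 and LINC01116 were the 2 RNAs called in opposite directions. LINC02577 (chromosome 7) was at 2.10, 2.25 and 1.88 CPM in control, 0.980, 1.16 and 0.998 CPM with shAKR1B1 and 2.85, 2.61 and 2.86 CPM with shSORD. It fell 1.98-fold (adjusted p = 6.86e-05) and rose 1.33-fold (log2 0.42 ± 0.13, adjusted p = 0.0152), and the difference was -1.40 ± 0.15 (adjusted p = 4.24e-06). LINC01116 (chromosome 2) was at 3.65, 4 and 3.54 CPM, then 2.60, 2.84 and 2.04 CPM, then 4.35, 4.85 and 4.74 CPM. It fell 1.5-fold (adjusted p = 0.00176) and rose 1.25-fold (log2 0.32 ± 0.12, adjusted p = 0.04), a difference of -0.90 ± 0.13 (adjusted p = 8.85e-05). Neither RNA's groups overlapped, yet the shSORD calls were lost with DESeq2 (adjusted p = 0.0748 for LINC02577 and 0.0931 for LINC01116). That of LINC02577 was also lost without control replicate 3 (log2 0.36, adjusted p = 0.0666), with a range of 0.00618 to 0.0748 over all alternatives. That of LINC01116 was lost without control replicate 1 or 3, shAKR1B1 replicate 1 or shSORD replicate 2 or 3 (log2 0.29 to 0.32, adjusted p = 0.0517 to 0.114) and without an expression filter (0.31, adjusted p = 0.0645), with a range of 0.0155 to 0.114.

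In the other direction LINC00513 (chromosome 7) was at 2.40, 2.52 and 2.26 CPM in control, 2.57, 2.44 and 2.48 CPM with shAKR1B1 and 1.35, 1.34 and 1.38 CPM with shSORD. It fell 1.76-fold with shSORD alone (adjusted p = 0.00011), beside 0.06 ± 0.12 with shAKR1B1, and the knockdowns differed by 0.88 ± 0.13 (adjusted p = 0.000133). LINC00106, on the X chromosome, rose 2.5-fold with shAKR1B1 (adjusted p = 0.000116). Its shSORD value, 0.59 ± 0.24 (adjusted p = 0.0457), came from libraries at 1.5, 1.71 and 0.928 CPM that overlapped control at 0.801, 1.11 and 0.840 CPM, and this call was lost with DESeq2 (adjusted p = 0.0786). It was also lost without control replicate 1 or 3, shAKR1B1 replicate 1 or shSORD replicate 1 or 2 (log2 0.40 to 0.58, adjusted p = 0.056 to 0.181) and with 2 groups only (0.61, adjusted p = 0.0566), and its adjusted p ran from 0.00297 to 0.181 over the alternatives. The difference between the knockdowns for LINC00106, 0.74 ± 0.20 (adjusted p = 0.0126), was 0.62 without shAKR1B1 replicate 3 (adjusted p = 0.0696).

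Of 20 LINC names chosen because they recur in work on lung or other carcinomas, 13 were members, 6 lay under the threshold and LINC00673 was not matched and is not analysed here. LINC00460, LINC00942, LINC00520 and LINC-ROR averaged at most 1.67 counts, LINC00665 had 7 and LINC01133 had 20.9. Of the 13 members, LINC00511, LINC00941 and LINC01116 are described above. All but LINC00511 and LINC00941 changed by less than 2-fold. LINC-PINT, a p53-induced RNA that binds Polycomb proteins, rose from 5.45 ± 0.416 CPM to 9.29 ± 0.468 with shAKR1B1 and 8.79 ± 0.189 with shSORD (log2 0.77 ± 0.089 and 0.69 ± 0.089, adjusted p = 3.62e-06 and 1.26e-05). It starts within 1 kb of MKLN1 on the opposite strand and overlaps it, and without the strand setting of the counting the reads of such pairs cannot be told apart.

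LINC00467, described as repressed by MYCN in neuroblastoma, rose with shAKR1B1 (log2 0.42 ± 0.10, adjusted p = 0.00263), beside 0.04 ± 0.10 with shSORD. LINC01234 and LINC00857 rose with shSORD (log2 0.43 ± 0.060 and 0.46 ± 0.071, adjusted p = 2.65e-05 and 6.44e-05), beside -0.05 ± 0.061 and 0.15 ± 0.072 with shAKR1B1. The latter was called with 2 groups only, a stricter filter, upper-quartile scaling (0.17 to 0.21, adjusted p = 0.0222 to 0.0366) or without shSORD replicate 3 (0.16, adjusted p = 0.0392). LINC00707 was at 7.46, 8.56 and 8.73 CPM in control, 8.24, 7.50 and 9.14 CPM with shAKR1B1 and 8.68, 12.8 and 16.2 CPM with shSORD. Its shSORD libraries were spread over nearly all of the range, 1 within control, and the log2 rise of 0.60 ± 0.17 (adjusted p = 0.00608) was 0.40 without shSORD replicate 3.

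LINC00662 gave 0.22 ± 0.086 with shSORD (adjusted p = 0.0389), which was 0.15 and not called without shSORD replicate 3 (adjusted p = 0.0975). This call was also lost without control replicate 1 or 2, shAKR1B1 replicate 1 or 3 or shSORD replicate 1 (adjusted p = 0.0527 to 0.137) and without an expression filter (adjusted p = 0.0507). With shAKR1B1 LINC00662 stood at 0.13 ± 0.087 (adjusted p = 0.219), and was called with 2 groups only (0.15, adjusted p = 0.0312). LINC01503, driven by a super-enhancer in squamous carcinoma, gave -0.39 ± 0.12 and -0.36 ± 0.12 (adjusted p = 0.0117 and 0.0181), and LINC00472 gave -0.24 ± 0.15 and -0.46 ± 0.16 (adjusted p = 0.194 and 0.0215). The shSORD calls of these 3 were lost with DESeq2 (adjusted p = 0.0519, 0.0668 and 0.0504). Those of LINC01503 and LINC00472 were also lost without control replicate 1 and without shSORD replicate 2, that of LINC01503 without control replicate 2, and that of LINC00472 without control replicate 3 and without shSORD replicate 1 (adjusted p = 0.0553 to 0.0876). The shSORD call of LINC01503 was lost with upper-quartile scaling too (adjusted p = 0.0523). The shAKR1B1 call of LINC01503 was lost without shAKR1B1 replicate 2 (log2 -0.33, adjusted p = 0.0609). Over all alternatives the shSORD adjusted p ran from 0.00133 to 0.137 for LINC00662, 0.0187 to 0.0668 for LINC01503 and 0.00803 to 0.0876 for LINC00472. LINC00963 was not called, at 73.9 ± 0.563, 69.1 ± 4.21 and 70.5 ± 5.75 CPM (log2 -0.10 ± 0.067 and -0.07 ± 0.066), nor was LINC00261 (0.16 ± 0.13 and -0.14 ± 0.13).

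The smallest changes in both knockdowns were those of LINC01003, LINC00888 and LINC02980, all within 0.07 of 0 on the log2 scale. LINC01003 was at 2.04, 1.41 and 1.48 CPM in control, 1.56, 1.60 and 1.76 CPM with shAKR1B1 and 1.58, 1.73 and 1.63 CPM with shSORD. Among the 10 most abundant per length, LINC02506 and LINC00674 were not called in either comparison, LINC02582 rose (log2 1.16 ± 0.081 and 0.69 ± 0.082, adjusted p = 1.87e-08 and 4.97e-06), and LINC00847 rose by 0.31 ± 0.071 and 0.38 ± 0.070 (adjusted p = 0.00158 and 0.00035). LINC02298 gave 0.38 ± 0.097 and 0.30 ± 0.097 (adjusted p = 0.00377 and 0.0176), and its shSORD call was lost without control replicate 2 or 3 or shSORD replicate 1 (adjusted p = 0.0529 to 0.0702). LINC01836 rose with shSORD (log2 0.47 ± 0.14, adjusted p = 0.00809), beside 0.25 ± 0.14 with shAKR1B1, which was called with 2 groups only (0.27, adjusted p = 0.0455) and without control replicate 3 (0.39, adjusted p = 0.0422) or shAKR1B1 replicate 3 (0.37, adjusted p = 0.0383).

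Near the threshold LINC00862 rose in both knockdowns (log2 0.78 ± 0.18 and 1.03 ± 0.18, adjusted p = 0.0022 and 0.000196), from 29 to 33 control counts per library. LINC02985 rose with shAKR1B1 (0.70 ± 0.20, adjusted p = 0.00892), a call lost without control replicate 2 (0.50, adjusted p = 0.0515), and stood at 0.01 ± 0.22 with shSORD, and LINC02482 was not called in either, though without shSORD replicate 3 its shSORD value of 0.36 ± 0.19 became 0.54 (adjusted p = 0.0238).

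Position was not used by the rule. In GENCODE 29, 47 of the 113 lie within 10 kb of the nearest protein-coding gene and 18 lie over 100 kb away, 6 overlap a coding gene on the same strand, 3 overlap one on the opposite strand, and 7 have an opposite-strand coding start within 1 kb of their own. The nearest coding gene was tested for 95. With shAKR1B1, RNA and neighbour both rose in 14 pairs, both fell in 16, the RNA rose and the neighbour fell in 10, and the RNA fell and the neighbour rose in 2. With shSORD these counts were 17, 11, 13 and 2. Of the same neighbours 26 rose and 37 fell with shAKR1B1 and 30 rose and 35 fell with shSORD, and the relation was not tested. All these are counts of pairs, so a coding gene nearest to 2 members, such as PWWP2B or SAMD11, is counted with each. The pairs in which the RNA rose and the neighbour fell with shAKR1B1 include LINC03060 and AKR1B1, the target of that hairpin.

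LINC01433 and SMOX, the gene of spermine oxidase, lie 5.32 kb apart on the same strand and both fell. SMOX was at 225, 207 and 211 CPM in control, 66.7, 69.8 and 65.8 CPM with shAKR1B1 and 73.5, 77.8 and 60.9 CPM with shSORD (log2 -1.67 ± 0.077 and -1.60 ± 0.077, adjusted p = 2.06e-10 and 5.32e-10), beside -2.13 and -1.61 for LINC01433. LINC02535 lies 59.4 kb from NT5E, the cell-surface ectonucleotidase that makes adenosine, on the opposite strand. NT5E rose from 14.1 ± 0.802 CPM to 52.9 ± 2.05 with shAKR1B1 and 19.6 ± 3.29 with shSORD (log2 1.91 ± 0.099 and 0.48 ± 0.10, adjusted p = 6.65e-10 and 0.000971), the same order of groups as for LINC02535.

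LINC00973 lies 79.4 kb from DCBLD2, the gene of a transmembrane receptor-like protein, which fell from 1349 ± 25.3 CPM to 783 ± 59.5 and 675 ± 74.5 (falls of 1.72-fold and 2-fold, adjusted p = 3.61e-07 and 4.12e-08). LINC02870 and LINC03068 share the neighbour PWWP2B, which fell by 0.48 and 0.70 on the log2 scale (adjusted p = 0.000427 and 1.42e-05). LINC01547 starts 0.097 kb from the oppositely transcribed SLX9, and SLX9 fell by 1.15 and 1.26 (adjusted p = 2.29e-08 and 1.39e-08) beside -0.57 and -0.88 for the RNA.

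Other pairs did not move alike in every comparison. LINC00941 starts 0.216 kb from CAPRIN2, an RNA-binding protein gene on the opposite strand, and fell by 2.37 and 1.26 while CAPRIN2 rose by 0.21 and 0.30 (adjusted p = 0.0267 and 0.00346). LINC03060 lies 9.90 kb from AKR1B1 on the same strand, and was at 8.12, 9.49 and 7.30 CPM in control, 13.4, 12.8 and 12.4 CPM with shAKR1B1 and 9.63, 9.56 and 9.10 CPM with shSORD. It rose with shAKR1B1 (log2 0.63 ± 0.093, adjusted p = 4.15e-05) where AKR1B1 fell by 3.20, and stood at 0.18 ± 0.095 with shSORD (adjusted p = 0.113), which was 0.29 and called without control replicate 2 (adjusted p = 0.0223), and 0.26 and called with upper-quartile scaling (adjusted p = 0.034). AKR1B1 is the target of the shAKR1B1 hairpin, so whether the locus changed as a whole cannot be read from this pair. LINC00261 lies 2.36 kb from FOXA2, the pioneer factor of endoderm, and was not called, while FOXA2 fell by 0.42 and 0.29 (adjusted p = 7.32e-05 and 0.00161). LINC02593 lies 2.91 kb from SAMD11, which fell by 0.26 with shAKR1B1 (adjusted p = 0.0392), where LINC02593 rose. Both rose with shSORD, SAMD11 by 0.65 (adjusted p = 6.92e-05), and both were higher with shSORD than with shAKR1B1.

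**Figure D4:**
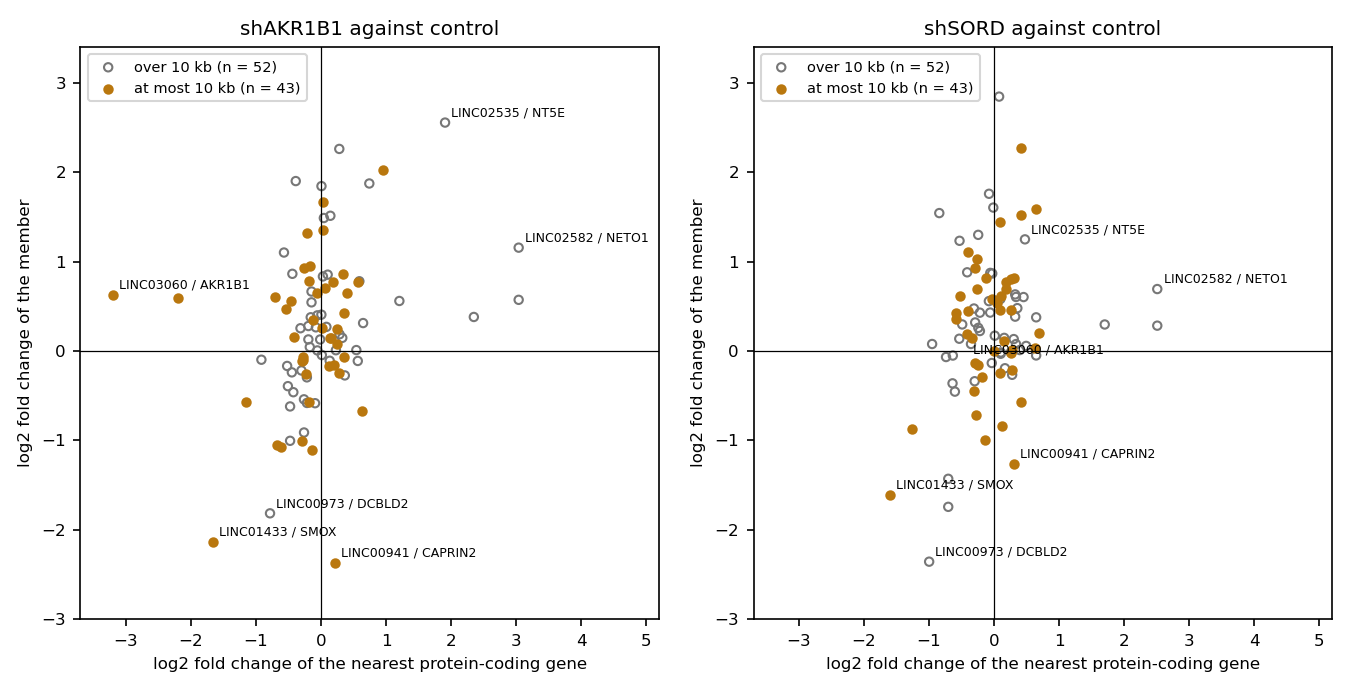
Log2 fold change of a LINC-named RNA (y axis) against that of its nearest protein-coding gene (x axis) for the 95 pairs tested, with shAKR1B1 (left) and shSORD (right): filled points lie within 10 kb (n = 43), open points farther (n = 52). LINC01433 and SMOX are low together and LINC02535 and NT5E high together, while LINC03060 is above 0 (0.63) at the AKR1B1 value of -3.20. AKR1B1 is itself the target of the shAKR1B1 hairpin.

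Other RNAs without a coding role, taken by the form of their symbol at the same count threshold, were set beside the list. Of 258 antisense-named genes (symbols ending in -AS, with or without a number) 108 rose and 27 fell with shAKR1B1 (41.9% and 10.5%), and 102 rose and 20 fell with shSORD (39.5% and 7.75%). Of 23 small nucleolar RNA host genes (SNHG) 2 rose and 15 fell with shAKR1B1, and 4 rose and 9 fell with shSORD. Of 23 microRNA host genes 11 rose and 9 fell with shAKR1B1, and 8 rose and 4 fell with shSORD. Protein-coding genes (11855) rose in 27.6% and fell in 36.0% with shAKR1B1, and rose in 26.6% and fell in 36.1% with shSORD. The differences between these classes were not tested.

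A further 156 LINC rows under the threshold passed the filter on low counts, and 62 rose and 17 fell with shAKR1B1 and 56 rose and 13 fell with shSORD. Rows this low pass the filter more readily when 1 group is high, so nothing is read from their balance.

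**Figure D5:**
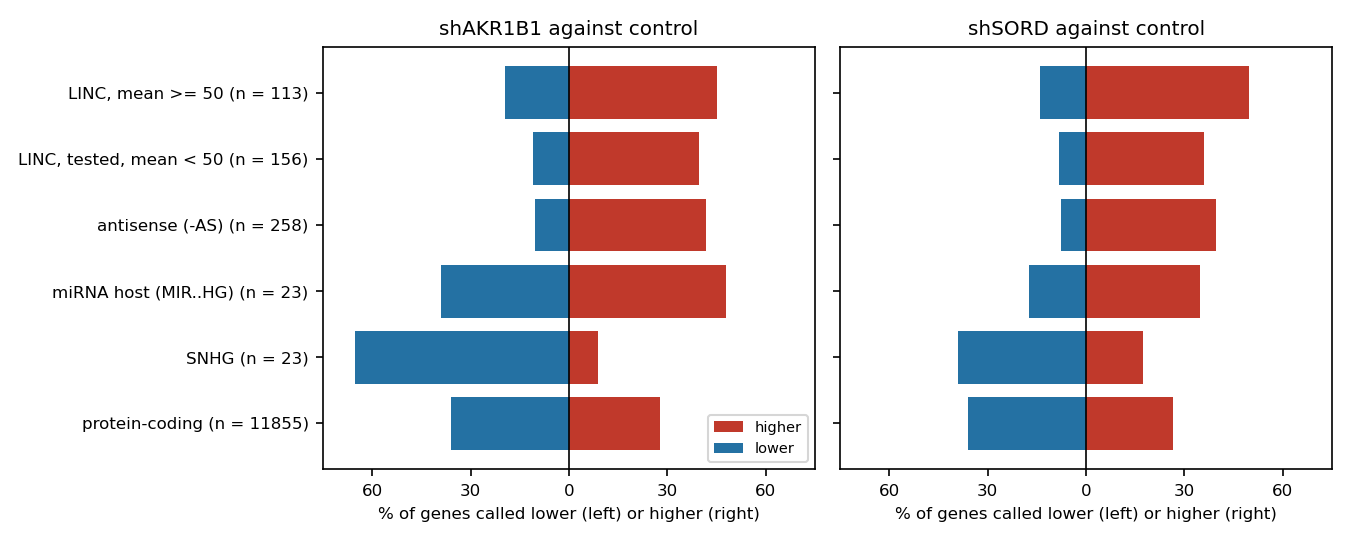
Share of genes called higher (right, red) and lower (left, blue) against control, in % of those tested, for LINC-named RNAs at and under the count threshold, 3 other name classes and protein-coding genes. LINC members rose in 45.1% and 49.6% and fell in 19.5% and 14.2%. Antisense-named genes had a like balance (41.9% and 39.5% up, 10.5% and 7.75% down), while SNHG genes fell more often than they rose in both knockdowns.

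The nuclear RNA exosome, with its adaptor complexes NEXT and PAXT, degrades many unstable non-coding transcripts, and the Integrator complex ends transcription of many of them. Of 19 exosome and adaptor genes, 1 rose and 12 fell with shAKR1B1, and 2 rose and 13 fell with shSORD. The falls were 63.2% and 68.4% of the list, beside 29.6% and 29% of all genes tested, and the rises 5.26% and 10.5%, beside 27.8% and 27.5%. EXOSC5, a core subunit, fell by 1.17 and 0.49 on the log2 scale (adjusted p = 8.57e-09 and 5.88e-05), and EXOSC4 fell by 0.69 and 0.84 (adjusted p = 4.83e-06 and 9.16e-07). ZFC3H1, the scaffold of PAXT, rose by 0.71 and 0.55 (adjusted p = 4.96e-06 and 6.56e-05), while the helicase MTREX fell by 0.26 and 0.44 (adjusted p = 0.0441 and 0.00222). Of 14 Integrator genes, 2 rose and 7 fell with shAKR1B1 and 2 rose and 5 fell with shSORD (falls of 50% and 35.7%, rises of 14.3% in each). Of protein-coding genes above the count threshold, 36.0% and 36.1% fell and 27.6% and 26.6% rose in the same order. The share of Integrator genes that fell with shSORD was thus near that background. INTS3 rose by 0.44 and 0.45 and INTS7 fell by 0.53 and 0.57. The part of these genes in the changes of the LINC-named RNAs was not tested.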

How the data were processed

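Poly(A)-selected, strand-marked RNA-seq (TruSeq stranded mRNA, per the labels' protocols) was made from A549 cells grown with 5% serum. The authors deposited raw counts of reads per Ensembl gene. Per the submitters' processing notes the tools were cutadapt 1.9.1, STAR 2.5.2b, featureCounts 1.5.1 and DESeq2 1.12.3 on GRCh37. Of annotation release, strand setting and treatment of multi-mapping reads the details were not given in the sources used here. Therefore counts of overlapping or antisense pairs and of pseudogene-derived loci (LINC00888, LINC00674) are uncertain.

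Counts were tested with edgeR 4.0.16 in R 4.3.3: TMM scaling, filtering by group, 1 mean per group over 9 libraries, Benjamini-Hochberg adjustment over all 16916 genes tested, a threshold of 0.05, and a prior count of 0.125. "Rose", "fell", "higher" and "lower" denote calls. All single-gene adjusted p-values come from this test unless another tool is named (n = 3 libraries per group). The common biological coefficient of variation was 6.59%. SE was taken as the size of a log2 fold change over the root of its F statistic. CPM is counts per 1e+06 of TMM-scaled library size. Symbols came from a table matching 51996 of 57905 IDs. Types, exon lengths and neighbours came from GENCODE 29, another build, so no coordinates of it are given. The code was tested on simulated data.

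Same-numbered shAKR1B1 and shSORD libraries deviated together from their group means (r = 0.205, 0.331 and 0.236 across genes), and control libraries did not (-0.080 to 0.090), so the numbers were taken to pair the knockdowns. This comes from the data and not from the labels.

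Members and lists were chosen with earlier results of these data known. Named were the targets, the 10 highest levels per length, the 8 largest rises and falls per knockdown and the 5 largest differences each way between the knockdowns among calls without overlap of libraries, opposite calls, the 3 smallest changes, known cancer-related names, rows beside the threshold and nearest coding genes. Further members and the exosome and Integrator genes were named after their values were seen. Alternatives were other scalings, filters, thresholds and list rules, DESeq2 1.42.0, 2 groups only, a replicate block and leaving out each library.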

Additional observations from a re-analysis of the deposited data

Results flagged for a closer look

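LINC02577 and LINC01116 were set apart because they were called in opposite directions in the knockdowns and also differ by direct test. A direct difference alone was not particular to them, as 40 members were called between the knockdowns. LINC02577 changed by -0.98 (log2) with shAKR1B1 and 0.42 with shSORD, a difference of -1.40 (edgeR adjusted p = 4.24e-06), and all 3 libraries of each knockdown lay on their own side of control. LINC01116 changed by -0.58 and 0.32, a difference of -0.90 (adjusted p = 8.85e-05), with the same separation of libraries. The shSORD calls of LINC02577 and LINC01116 were lost with DESeq2 (adjusted p = 0.0748 and 0.0931). They were also lost without control replicate 3 (edgeR adjusted p = 0.0666 and 0.114).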

How the results depend on the processing

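Of 111 values of named RNAs 82 were called, and 71 of these calls held under all settings run, apart from a stricter threshold. Counts of calls stayed within 1.5 times under other scalings, filters, DESeq2, 2 groups only and list rules (as shares where the list size changed), with these exceptions. At an adjusted p under 0.01, 10 fell with shSORD and 12 and 13 were higher and lower between the knockdowns.

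The 2-fold counts that moved were, with shAKR1B1, 9 higher (at least 50 counts in every group mean) and 5, 5 and 9 lower (upper-quartile scaling; 47 members at a threshold of 200 counts; 191 with RefSeq synonyms), and with shSORD, 8 higher (every group mean) and 3 lower (102 members without coding, pseudogene, antisense and overlapping types). Between the knockdowns they were 7, 0 and 3 higher (thresholds of 20 and 200, synonyms) and 1 and 2 lower (200, every group mean).

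The median with shAKR1B1 was 0.31 with upper-quartile scaling, 0.33 at a threshold of 20, 0.15 with 50 in every group mean and 0.19 with synonyms. With shSORD it was 0.30 with 2 groups only, 0.27 without a filter, 0.32 with a stricter one, 0.35 with upper-quartile scaling, 0.37 at 20, 0.38 at 200, 0.20 with 50 in every group mean, 0.24 with synonyms and 0.34 without those types. The synonym and type lists and a block over the knockdowns only were chosen after seeing the data. A list by older symbols could not be run, as the name table gave 0.

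Leaving out 1 library at a time gave 50 to 53 higher and 19 to 22 lower with shAKR1B1 (2-fold 16 to 18 and 6 to 8, median 0.17 to 0.26). It gave 50 to 56 and 11 to 16 with shSORD (2-fold 14 to 16 and 5 to 6, median 0.27 to 0.32), and 15 to 21 and 16 to 25 between the knockdowns (2-fold 1 and 3 to 5, median -0.083 to -0.013).

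The replicate block pairs same-numbered libraries of all groups, though the control libraries did not deviate together with the others. With it the counts were 51 and 22, 56 and 16, and 21 and 22 (22 and 23 with the knockdowns alone). The medians were 0.24, 0.28 and -0.03 (-0.04 alone), and no call of a named RNA was lost.

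Values that changed sign were near 0 and not called. Without a filter these were LINC01003 (-0.0030 and -0.0011), LINC00888 (-0.0094) and LINC00707 (-0.0052) with shAKR1B1 and LINC02985 (-0.0040) with shSORD. A stricter filter gave LINC02980 0.015 with shSORD, and upper-quartile scaling gave LINC02980 0.047 and LINC00963 0.0043 with shSORD and LINC01234 0.013 with shAKR1B1. Ranges over left-out libraries were, with shAKR1B1, -0.091 to 0.19 for LINC01003, -0.046 to 0.045 for LINC00888, -0.11 to 0.0019 for LINC02980 and -0.072 to 0.094 for LINC00707. With shSORD they were -0.092 to 0.19 for LINC01003, -0.14 to 0.074 for LINC02980, -0.11 to 0.0097 for LINC00963, -0.024 to 0.19 for LINC02506, -0.046 to 0.10 for LINC01914, -0.0070 to 0.10 for LINC00467 and -0.20 to 0.25 for LINC02985. The causes of these shifts were not tested. RNAs with fewer than 50 control counts have the widest errors.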
